A study of Mus musculus with 6 samples.

Results

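The cells described here are neoplastic lung cells with the transcript of alveolar type II (ATII) cells, a reduced level of lysozyme 2 transcript and the transcript of Dlk1, called Lyz2-reduced Dlk1 cells below. They were chosen by their own counts. A cell had to have at least 500 genes, at most 20% mitochondrial unique molecular identifiers (UMIs, each standing for 1 captured transcript), at least 1 TdTomato UMI and at least 2 Dlk1 UMIs, and per 10000 of its UMIs at least 500 of Sftpc, under 100 of Lyz2, under 2 of Hopx and under 50 of Krt8 and Krt18 together. This rule found 419 of the 16017 cells, or 2.62% (exact Clopper-Pearson 95% interval 2.37 to 2.88).

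The cells came from 6 mice that carried Lkb1XTR/XTR and Rosa26LSL-tdTomato. Lung tumours were started with Lenti-Cre through the trachea and grown for 20 weeks, and tdTomato-positive cells were sorted away from CD45, CD31, F4/80 and Ter119-positive cells. In the XTR allele, Cre inverts a GFP gene trap that cuts Lkb1 (Stk11) transcripts short, and the FLPo-ERT2 recombinase removes the trap when tamoxifen is given. The 3 Restored mice carried Rosa26LSL-tdTomato/FLPo-ERT2 and had tamoxifen, in 4 mg doses over 2 weeks. The 3 NonRestored mice were 1 with tamoxifen and 1 with vehicle that carried Rosa26LSL-tdTomato alone, and 1 with Rosa26LSL-tdTomato/FLPo-ERT2 that had vehicle. The deposited count matrix pools all 6 mice with no map from cells to mice. It is therefore 1 sample: restored and non-restored mice were not compared, no difference below has a test, and every interval covers counting error alone.

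ATII cells make surfactant and line the alveoli. Their surfactant protein C (Sftpc) and lysozyme 2 (Lyz2) are classic markers, and lung adenocarcinomas often keep part of this program. Dlk1, delta-like non-canonical Notch ligand 1, is a membrane protein of fetal and progenitor tissues, made from the paternal copy of an imprinted domain on mouse chromosome 12. The maternal copy of the same domain makes long non-coding RNAs, among them Meg3 and Mirg, and Mirg hosts many microRNAs. In the mouse genome mm10, Dlk1 lies at chr12:109452823-109463336, Meg3 at chr12:109541001-109571726 and Mirg at chr12:109729764-109749460, all on the plus strand.

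The 250 bases before the starts of Dlk1 and Meg3, the pair of genes in the domain with the most UMIs in these cells, are shown because one set the rule and the other differed between cells with and without Dlk1. They are RefSeq sequences in build GRCm38.p6, at chr12:109452573-109452822 and chr12:109540746-109540995, plus strand. Capitals mark the cyclic AMP response element TGACGTCA and the TATA box TATAAA, both searched on both strands.
Dlk1: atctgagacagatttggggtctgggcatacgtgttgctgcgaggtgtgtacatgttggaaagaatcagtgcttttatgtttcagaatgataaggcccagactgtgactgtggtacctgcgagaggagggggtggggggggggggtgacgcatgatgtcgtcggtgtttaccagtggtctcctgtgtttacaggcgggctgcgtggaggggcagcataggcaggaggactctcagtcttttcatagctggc
Meg3: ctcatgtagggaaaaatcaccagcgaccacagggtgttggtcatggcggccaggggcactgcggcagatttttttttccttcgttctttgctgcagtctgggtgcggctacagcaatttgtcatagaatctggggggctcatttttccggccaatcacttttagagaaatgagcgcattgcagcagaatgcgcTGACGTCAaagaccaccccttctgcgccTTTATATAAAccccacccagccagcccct

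RefSeq starts Meg3 slightly before the mm10 position given above, and the window ends at RefSeq's start. The Meg3 window held 1 TGACGTCA, starting 57 bases before RefSeq's start, and 2 overlapping TATAAA matches, 1 on each strand. The Dlk1 window held neither string of letters. Of 32851 RefSeq windows of the same length, 1.55% held TGACGTCA and 12.4% held TATAAA.

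Mirg is shown through the microRNAs inside it, because the counts see the host transcript and not the mature microRNAs, which were not measured. RefSeq places 26 mature sequences from 14 hairpins within Mirg, with 25 distinct seeds (bases 2 to 8, in capitals). In 6 of them, or 23.1%, the seed held GGUU, against 2.59% of 1738 mouse mature sequences, and miR-453 and miR-496a-5p shared 1 seed. No rule set GGUU in advance, so these shares are a description only and nothing is read from their difference. The 6 are shown here.
mmu-miR-453: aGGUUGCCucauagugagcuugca
mmu-miR-496a-5p: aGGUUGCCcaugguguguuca
mmu-miR-409-5p: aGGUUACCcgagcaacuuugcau
mmu-miR-410-5p: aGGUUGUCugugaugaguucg
mmu-miR-154-5p: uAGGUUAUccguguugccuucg
mmu-miR-377-5p: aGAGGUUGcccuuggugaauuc

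The order of the gate gives the size of each step. Of 16017 cells, 13936 had 500 genes, 12183 of these passed the mitochondrial limit and 12092 also held TdTomato. The Sftpc limit left 8524 cells, the Hopx limit 7066 and the keratin limit 6974, the Sftpc-high gate. In this gate 3545 cells were under the Lyz2 limit, and 419 of them had at least 2 Dlk1 UMIs, or 11.8% (95% interval 10.8 to 12.9). At or above the Lyz2 limit, 707 of 3429 gated cells had at least 2 Dlk1 UMIs, or 20.6% (19.3 to 22.0).

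The references were sets of the same gate, namely the 707 cells with Lyz2 of at least 100 and Dlk1 of at least 2 UMIs (Lyz2-high Dlk1 cells), all 3429 Lyz2-high cells, and the 3126 Lyz2-reduced cells with at most 1 Dlk1 UMI (Lyz2-reduced cells without Dlk1). Dlk1 and Lyz2 set these borders, so their own differences are given as description. Median depth was 23422 UMIs in the Lyz2-reduced Dlk1 cells, 28475 in the Lyz2-high Dlk1 cells, 24514 in all Lyz2-high cells and 18175 in the Lyz2-reduced cells without Dlk1. Median mitochondrial shares were 4.56%, 3.79%, 4.17% and 4.48% in the same order. The part of depth and mitochondrial share in the differences below was not tested, beyond the thinned values given.

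Dlk1 itself, which chose the cells, spanned a wide range among them. The median cell had 20 Dlk1 UMIs and the highest 446. There were 41 cells at the limit of 2 UMIs, 63 with 3 to 5, 43 with 6 to 10 and 272 with more than 10, while 191 Lyz2-reduced gated cells stood just outside with exactly 1. In counts per 1000000 UMIs summed over the set (CPM), Dlk1 was at 2218 (2190 to 2247) in the Lyz2-reduced and 2995 (2972 to 3019) in the Lyz2-high Dlk1 cells. Lyz2 had a median of 50.2 per 10000 UMIs among the Lyz2-reduced Dlk1 cells and 193 among the Lyz2-high ones, and of 25.4 in the Lyz2-reduced cells without Dlk1, so the 3 sets are ordered by Lyz2. At the Lyz2 limit, 49 cells with Dlk1 lay between 90 and 100 and 35 between 100 and 110, with no gap at 100. Sftpc ran from 503 to 2630 per 10000 UMIs, with a median of 1273.

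**Figure D1:**
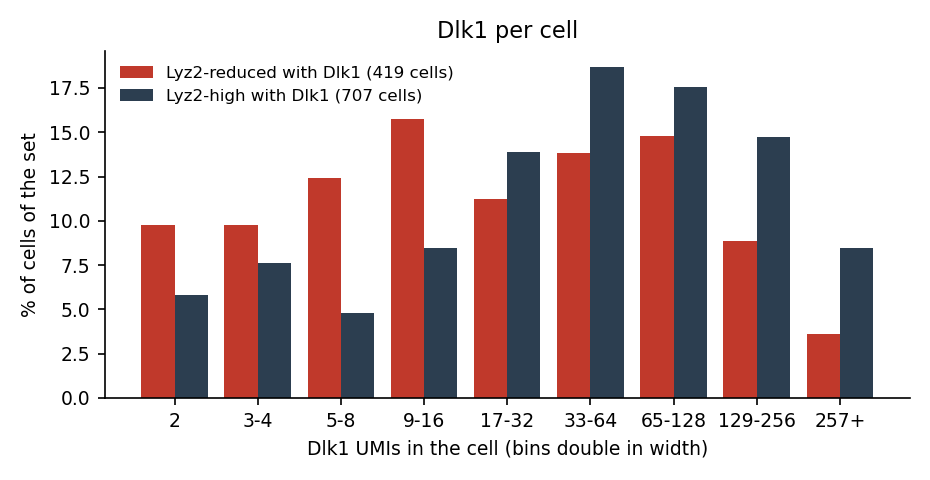
Share of cells (%, y axis) by the number of Dlk1 UMIs in the cell (x axis, bins that double in width) for the 419 Lyz2-reduced and the 707 Lyz2-high cells with at least 2 Dlk1 UMIs. Both sets spread over the whole range; the bin of 9 to 16 UMIs holds the most Lyz2-reduced cells (15.8%) and the bin of 33 to 64 the most Lyz2-high cells (18.7%).

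The columns of the matrix were also read in stretches of 1000, in file order, to see where the cells sit and to repeat each comparison among neighbouring columns. A stretch is not a mouse, and no stretch was given a mouse or a treatment. Of 16 full stretches, 8 held 28 to 72 Lyz2-reduced Dlk1 cells each, 409 in all or 97.6%. There they made up 4.73% to 19.5% of the gated cells. The other 8 full stretches held at most 5, and 5 of them held none among a total of 3232 gated cells in the 8, although 1687 Lyz2-reduced cells without Dlk1 were there. Of the 707 Lyz2-high Dlk1 cells, 669 sat in the same 8 stretches.

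**Figure D2:**
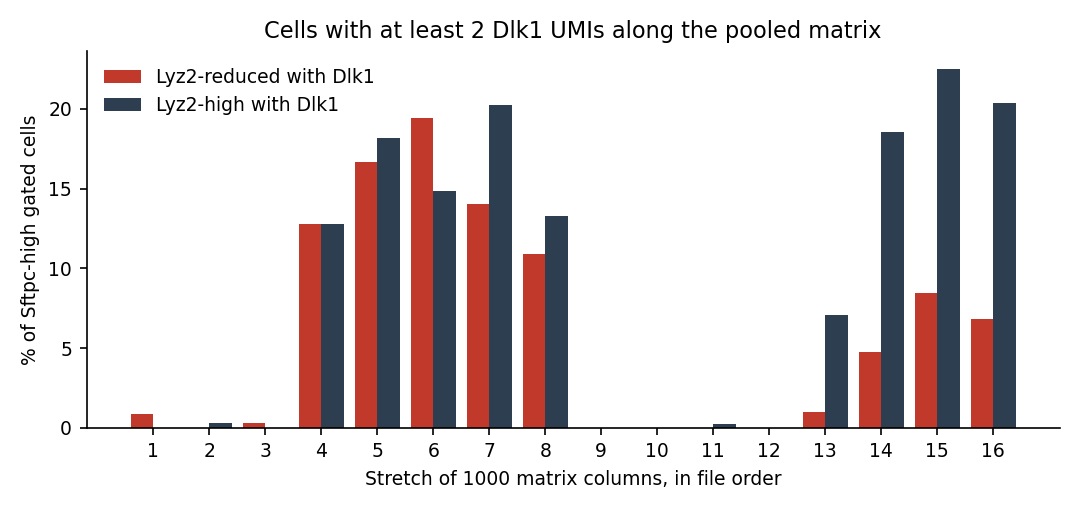
Share of Sftpc-high gated cells (%, y axis) that had at least 2 Dlk1 UMIs, in 16 stretches of 1000 matrix columns in file order (x axis), for Lyz2-reduced cells (the cells described here) and Lyz2-high cells. Stretches 4 to 8 and 14 to 16 hold 409 of the 419 Lyz2-reduced and 669 of the 707 Lyz2-high Dlk1 cells, and most of the other Lyz2-high ones are in stretch 13.

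Cells of both sexes were among them, unevenly. Xist, the RNA of the inactive X chromosome, was present without a UMI of Ddx3y, Uty, Kdm5d or Eif2s3y, genes of the Y chromosome, in 332 Lyz2-reduced Dlk1 cells (79.2%), against 80.5% of the Lyz2-high Dlk1 cells and 34.4% of the Lyz2-reduced cells without Dlk1. A Y-linked UMI without Xist was present in 72 (17.2%). The labels name 2 female and 4 male mice. The sets with and without Dlk1 thus differed in their make-up of these cells, and within-stretch values stand beside the pooled ones. They combine, for each gene, the ratios of the 8 stretches by the Mantel-Haenszel method. Some stretches still mix such cells: Xist without a Y-linked UMI was in 84.9% of the gated cells of stretch 5, 72.9% in stretch 8 and 59.1% in stretch 14. Within-stretch ratios can therefore still compare cells of different mice.

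GFP and Stk11 split the 8 stretches. In 5 of them (4 to 8) the Lyz2-reduced Dlk1 cells had 33.4 to 63.2 CPM of GFP and 0 to 1.9 CPM of Stk11, and in the other 3 (14 to 16) GFP was at 0 and Stk11 at 35.6 to 46.0 CPM. The Lyz2-high Dlk1 cells had the same split, with GFP at 33.1 to 59.6 CPM in the 5 and 0 in the 3. Pooled Stk11 levels were 11.9, 21.8 and 20.3 CPM in Lyz2-reduced Dlk1 cells, Lyz2-high Dlk1 cells and Lyz2-reduced cells without Dlk1. Within stretches the log2 ratio of Stk11 to the Lyz2-high Dlk1 cells was 0.09, where the pooled one was -0.88. The stretches 4 to 8 each held 41 to 72 Lyz2-reduced and 50 to 78 Lyz2-high Dlk1 cells, and the stretches 14 to 16 held 28 to 47 and 110 to 125. Pooled ratios between these 2 sets thus weigh the split unequally, and its part in them was not tested.

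Of an ATII list of 20 genes, all were detected in the Lyz2-reduced Dlk1 cells, of which Sftpc and Lyz2 belong to the rule and say nothing here. Among the 18 others were surfactant proteins A1, B and D (Sftpa1 at 17276 CPM, Sftpb at 11890, Sftpd at 5699), Napsa, which processes surfactant protein B, at 2440, and Lamp3, of the lamellar bodies that store surfactant, at 788. Markers of fibroblasts and leukocytes were low. The 12 fibroblast genes summed to 70 UMIs or 6.80 CPM, 4 of them at 0, with Col1a1 at 7 UMIs and Pdgfra at 0. The 12 myeloid genes outside the rule, a list that also holds Lyz2, summed to 58 UMIs (5.64 CPM), the 7 lymphoid genes to 12 (1.17 CPM), and the leukocyte gene Ptprc had 1 UMI. Of 13 neuroendocrine genes 8 were at 0, Chga among them, and Nnat, the imprinted neuronatin, held 910 of the list's 914 UMIs, in 175 cells.

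Markers of other lung epithelial cells were present beside those of ATII cells. The alveolar type I list without Hopx, a gene of the rule, summed to 35300 UMIs (3430 CPM), with Ager in 98.3% and the water channel Aqp5 in 97.6% of the cells. The 6 of its genes tested outside the rule had a median log2 ratio to the Lyz2-high Dlk1 cells of 0.32, where that of all genes was 0.15, with 0 called, where 1.18% of all genes were higher. The median against the cells without Dlk1 was -0.06, beside -0.03 for all genes. The keratin-high transitional list without Krt8 and Krt18, also of the rule and at 7321 and 8155 UMIs, summed to 24341 UMIs (2365 CPM), with a median log2 ratio of 0.52 to the Lyz2-high Dlk1 cells over 8 tested genes, 1 of them called, Plaur, and none within stretches. Its median against the cells without Dlk1 was 0.13. Nothing particular to these lists is read from so few calls. The club cell list summed to 12757 UMIs (1239 CPM), with Hp in 94.5%, Cbr2 in 72.3% and Cyp2f2 in 42.96% of the cells. Thinned to 5000 UMIs a cell, Ager was in 96.1%, Aqp5 in 90.7%, Hp in 80.9%, Cbr2 in 47.2% and Cyp2f2 in 19.3% of the Lyz2-reduced Dlk1 cells. As background, the shares were 4.84%, 3.23%, 9.68%, 1.61% and 0% of 62 Ptprc-positive cells, and 8.89%, 7.78%, 28.3%, 0% and 0.556% of 180 collagen-positive cells, both low in Sftpc and thinned alike. A share of 0 allows up to 4.84% in the former and 1.67% in the latter by a limit of 3 counts. The airway secretoglobin Scgb3a2 had 2 UMIs, and Scgb1a1 had 579, of which 79.6% lay in 1 cell. The ATII label thus holds for the surfactant genes and not as an absence of other epithelial markers, whose part in the differences below was not tested.

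The marker genes Meg3, Mirg, Lrg1 and Fbp1 were all higher than in the Lyz2-reduced cells without Dlk1. Against the Lyz2-high Dlk1 cells, Meg3 and Mirg were higher when pooled and near them within stretches, and Lrg1 was lower. Meg3 was at 4681 CPM (4639 to 4723) in the Lyz2-reduced Dlk1 cells, 3761 in the Lyz2-high Dlk1 cells and 2816 in the Lyz2-reduced cells without Dlk1. Across the 8 stretches its lowest, median and highest levels were 2499, 5179 and 6046 CPM, against 914, 3656 and 4225 in the cells without Dlk1. In each of the 8 it was above the cells without Dlk1, by 1.47-fold within stretches, though the highest of their levels exceeded the lowest of the others. Against the Lyz2-high Dlk1 cells Meg3 was above in 7 of 8, by 1.05-fold within stretches, a log2 ratio of 0.07 where the median of all genes was 0.13.

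Mirg followed the same order at 71.9, 54.2 and 41.1 CPM, above the cells without Dlk1 in 8 of 8 stretches (1.52-fold within stretches) and above the Lyz2-high Dlk1 cells in 5 of 8 (1.04-fold). B830012L14Rik, a non-coding transcript between Meg3 and Mirg, was at 43.8, 33.8 and 26.8 CPM. The rest of the 828 kb from Dlk1 to Dio3 stayed under 10 CPM. Of its 15 features in the matrix 8 had a UMI in these cells. Gm26945 had 70 UMIs (6.80 CPM) and Gm26906, on the other strand of Meg3, 31 (3.01 CPM), with Rtl1, a retrotransposon-like gene of the paternal copy, at 9 UMIs and Dio3, the deiodinase that inactivates thyroid hormone, at 6. Both of these paternally expressed neighbours of Dlk1 stayed under 1 CPM in all 3 sets, at 0.874, 0.287 and 0.604 CPM for Rtl1 and 0.583, 0.0956 and 0.620 CPM for Dio3. Of 11 genes on the list of this domain, 9 were found in the matrix and 4 passed the 10 CPM minimum beside Dlk1, and 0 differed 2-fold from the Lyz2-high Dlk1 cells (1.18% of all genes higher and 0.118% lower) or the cells without Dlk1 (0.641% and 0.372%). Of 19 tested genes of other imprinted loci, 0 differed 2-fold from the Lyz2-high Dlk1 cells and 1, Cdkn1c, from the cells without Dlk1. Lists of this size would hold about as few calls at the all-gene shares, so nothing is read from these counts.

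Lrg1 (chr17:56119678-56122001), a secreted leucine-rich glycoprotein of the acute phase, was at 726 CPM (ratio to the Lyz2-high Dlk1 cells 0.677, 0.659 to 0.695) against 1073 in those cells and 375 in the cells without Dlk1. Its level ran from 385 to 1217 CPM over the 8 stretches with a median of 586. It was below the Lyz2-high Dlk1 cells in every one and above the cells without Dlk1 in 7. Fbp1 (chr13:62864753-62888282), fructose-bisphosphatase of gluconeogenesis, was at 112, 120 and 60.5 CPM in the same order. Its pooled ratio to the Lyz2-high Dlk1 cells was 0.933 (0.870 to 1.00), within stretches it was 0.721, and in 0 of 8 stretches was it above them. After thinning to 5000 UMIs a cell its log2 ratio was 0.27, the opposite direction, so the direction of Fbp1 between these sets depends on the setting.

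At 5000 UMIs a cell, 98.3% of Lyz2-reduced Dlk1 cells (409 cells deep enough, 10 left out) had a Meg3 UMI, 65.04% an Lrg1 UMI, 41.8% an Fbp1 UMI and 25.4% a Mirg UMI. The Lyz2-reduced cells without Dlk1 (2971 cells, 155 left out) had 82.7%, 41.3%, 22.3% and 15.6%. Without thinning the shares of the Lyz2-reduced Dlk1 cells were 98.6%, 83.8%, 73.3% and 53.7%. As a measure of background, 62 Ptprc-positive cells low in Sftpc (median 25296 UMIs), thinned alike, had Meg3 in 20.97%, Mirg and Fbp1 in 1.61% each and Lrg1 in 40.3%. In 180 collagen-positive cells low in Sftpc (median 15480 UMIs) the shares were 21.1%, 1.67%, 0% and 1.67%, where the 0 of Fbp1 allows up to 1.67% by a limit of 3 counts (2.03% by the exact interval). The share of the cells without Dlk1 that held Lrg1 was thus close to that of the Ptprc-positive cells, while the Lyz2-reduced Dlk1 cells were above both backgrounds for all 4 genes.

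**Figure D3:**
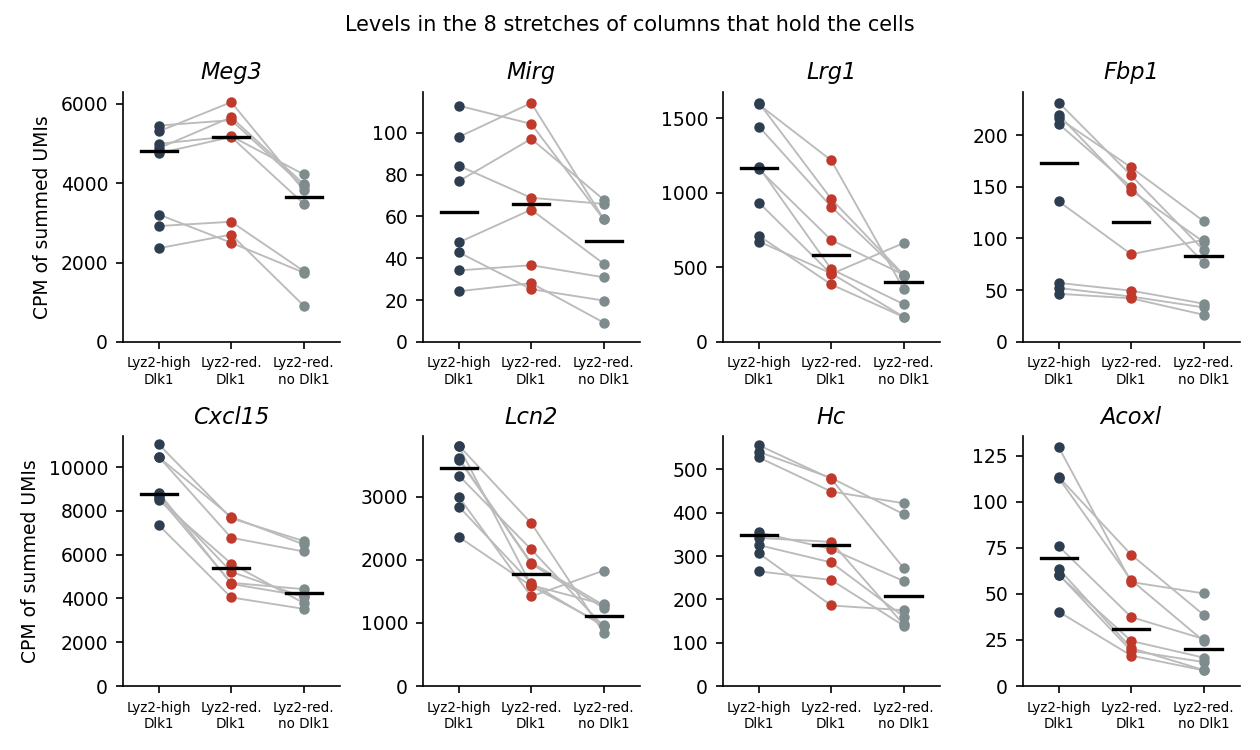
Level (CPM of summed UMIs, y axes from 0) of 8 genes in Lyz2-high Dlk1 cells, Lyz2-reduced Dlk1 cells and Lyz2-reduced cells without Dlk1 (x axis); each point is 1 of the 8 stretches with at least 20 cells of each set, grey lines join a stretch and black bars are medians. Cxcl15, Hc and Acoxl step down from left to right in every stretch, Lrg1, Fbp1 and Lcn2 in 7 of 8 before thinning, and Meg3 and Mirg are lower in the cells without Dlk1 in all 8.

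Several ATII genes stood between both references, as Lyz2, which set the borders, did. Cxcl15, a chemokine of the lung epithelium, was at 5622 CPM in the Lyz2-reduced Dlk1 cells, 9627 in the Lyz2-high Dlk1 cells and 4963 in the Lyz2-reduced cells without Dlk1. In all 8 stretches it was below the first reference and above the second. The same held for Hc, complement C5 (within-stretch log2 ratios -0.22 and 0.52), and Lamp3 (-0.17 and 0.12), beside all-gene medians of 0.13 and -0.04. Among the Lyz2-reduced Dlk1 cells, over Lyz2 in steps of 25 per 10000 UMIs from 0 to 100, Cxcl15 was at 4233, 5963, 5653 and 6688 CPM, Sftpa1 at 14250, 16287, 19406 and 19335, and Hc at 255, 405, 347 and 305, with no order in Hc. Pooled, Hc was within counting error of the cells without Dlk1 (323.5 against 312.5 CPM, ratio 1.03, 0.998 to 1.07), and with every cell given equal weight its log2 ratio was -0.09. Of the 18 ATII genes tested outside the rule, 9 lay below the Lyz2-high Dlk1 cells and above the cells without Dlk1 within stretches, against 542 of all 7607 genes, or 7.13%. Of all genes 11 did so in every stretch, among them Acoxl, a peroxisomal oxidase-like gene, Hdc, which makes histamine, Rnase4, Lbp, Bex2, Selenop, Mlc1 and Slc39a8. The remaining ATII genes did not stand between: 5 were below both references, 2 above both and 2 in the reverse order. Sftpb was above the Lyz2-high Dlk1 cells in 6 of 8 stretches and above the cells without Dlk1 in 1, and Sftpd in 5 and 6.

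None of the 18 ATII genes outside the rule differed 2-fold from the Lyz2-high Dlk1 cells, where 1.18% of all genes were higher and 0.118% lower. At such shares few calls would be found in a list of this size, so nothing is read from the count. The list's median log2 ratio there was -0.12 and that of all genes 0.15. Against the cells without Dlk1 1 of 18 was called, the fatty acid binding protein Fabp5, where 0.641% of all genes were higher and 0.372% lower. The list's median was 0.02 beside -0.03 for all genes. Fabp5 was at 648, 830 and 301 CPM in the Lyz2-reduced Dlk1 cells, the Lyz2-high Dlk1 cells and the cells without Dlk1, and above the last in 7 of 8 stretches. Lcn2, lipocalin 2 of innate defence, followed at 1913, 3192 and 1312 CPM, and Sftpa1 at 17276, 24220 and 14526 CPM. Each was below the Lyz2-high Dlk1 cells in 8 of 8 stretches and above the cells without Dlk1 in 7. Major histocompatibility class II genes were near the Lyz2-high Dlk1 cells (median log2 ratio 0.02, or -0.14 to 0.05 under other settings, 0 of 8 called) and had a median of 0.28 against the cells without Dlk1, beside -0.03 for all genes, with 0 of 8 called where 0.641% of all genes were higher. Within stretches 1 of the 8, H2-DMb2, was 2.05-fold above the cells without Dlk1, and above in 7 of 8 stretches. Cd74, their invariant chain, was above the cells without Dlk1 in 8 of 8 stretches at 6586 against 5366 CPM.

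Among genes with at least 10 CPM in either set, and leaving out the genes of the rule and mitochondrial genes, 7636 were compared with the Lyz2-high Dlk1 cells. The median log2 ratio of all these genes was 0.15. At least 2-fold higher in the Lyz2-reduced Dlk1 cells were 90 genes (1.18%), and 9 were at least 2-fold lower (0.118%). Within stretches these counts were 59 and 9, sharing 57 and 6 genes with the pooled calls. Against all Lyz2-high cells, most of which lack Dlk1, 126 of 7665 were higher (1.64%) and 25 lower (0.326%). A list of RNA quality and stress genes moved with the set: all 12 were above the Lyz2-high Dlk1 cells (median log2 ratio 0.34, summed 39187 against 31675 CPM), 2 of them called, Hspa1a and Hspa1b, and none within stretches. Against the cells without Dlk1, at 52090 CPM, 1 of 12 was above, with a median of -0.28. The part of these genes in the calls was not tested.

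Proliferation genes were higher than in the Lyz2-high Dlk1 cells, behind Gkn2 and Ccl20, which are described with the few cells that hold them. All 15 genes of the list, without a minimum, summed to 400 CPM, against 101 in the Lyz2-high Dlk1 cells and 189 in the cells without Dlk1. Of 11 tested genes of the list 10 were at least 2-fold higher than in the Lyz2-high Dlk1 cells, with a median log2 ratio of 2.25 beside 0.15 for all genes, and 9 were within stretches (median 1.84). Genes such as the next 4 passed the 10 CPM minimum only through the Lyz2-reduced Dlk1 cells, where they are high, so this count and median are a description. Top2a, the topoisomerase of dividing cells, was at 38.2 against 7.03 CPM (ratio 5.43, 4.49 to 6.61). Birc5, survivin, was at 44.8 against 7.46 CPM (6.01, 4.999 to 7.25). Cdk1, the mitotic kinase, was at 40.9 against 6.93 CPM and Mki67, the Ki-67 antigen, at 37.5 against 7.89. By the size rule Pclaf, Rrm2, Pbk, Cdca3, Ube2c and Cenpf, all of the division cycle, were also among the 12 genes with the largest ratio.

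Few cells carried these transcripts. Top2a UMIs were in 32 of the 419 cells, and the 5 highest cells held 47.1% of them. At 5000 UMIs a cell, 21 of 409 Lyz2-reduced Dlk1 cells had at least 3 UMIs over the proliferation list, or 5.13% (3.21 to 7.74), against 1.56% (0.784 to 2.78) of the Lyz2-high Dlk1 cells and 2.46% (1.93 to 3.08) of the cells without Dlk1. Unthinned, these shares were 18.4%, 11.03% and 9.76%. The share was higher than in the Lyz2-high Dlk1 cells in 5 of 8 stretches and higher than in the cells without Dlk1 in 4 of 8. It was 0% in 3 stretches and reached 9.72% in another. With the cells of at least 3 unthinned UMIs left out of every set, 24 genes in place of 90 were 2-fold higher than in the Lyz2-high Dlk1 cells, a removal that by its construction takes out the proliferation list.

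**Figure D4:**
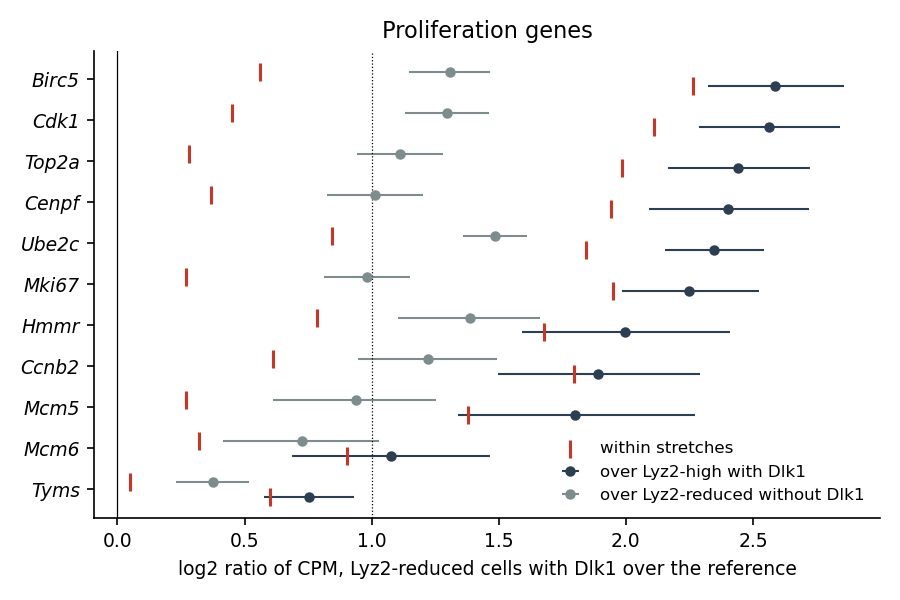
log2 ratio of CPM (x axis) for the 11 tested proliferation genes (y axis), Lyz2-reduced Dlk1 cells over Lyz2-high Dlk1 cells (dark) and over Lyz2-reduced cells without Dlk1 (grey); bars are 95% counting intervals, red ticks the within-stretch ratios and the dotted line 2-fold. Within stretches the ratios to the cells without Dlk1 fall to a median of 0.37, with none at 1, while those to the Lyz2-high Dlk1 cells keep a median of 1.84.

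Some genes outside the division cycle were past 2-fold within stretches against the Lyz2-high Dlk1 cells. The 4 given here were picked after their values were seen and are near or below the cells without Dlk1; others past 2-fold were above those cells too, such as Ccl20 at 11.95 against 2.16 CPM and Gzme at 38.1 against 12.5 when pooled. By stretch Ccl20 was above those cells in 3 of 8 and below in 4, and Gzme was above in 4 of 8 and not 2-fold within stretches (log2 ratio 0.83). S100a6, a calcium-binding protein, was at 360 CPM against 117 in the Lyz2-high Dlk1 cells (3.07-fold, 2.91 to 3.23) and 445 in the cells without Dlk1. It was above the Lyz2-high Dlk1 cells in 7 of 8 stretches and above the cells without Dlk1 in 1. F3, tissue factor, was at 53.5, 22.8 and 52.1 CPM, Nt5e, the CD73 ectonucleotidase, at 10.3, 3.39 and 12.4, and Edn3, an endothelin, at 12.7, 4.68 and 13.5. Each of these 3 was above the Lyz2-high Dlk1 cells in 8 of 8 stretches. Among the 12 genes lowest against the Lyz2-high Dlk1 cells were Acoxl (chr2:127838876-128123873) at 34.8 against 94.5 CPM (ratio 0.368, 0.328 to 0.412), the complement gene C6 at 22.5 against 57.5 and Gdpd2 at 6.12 against 16.3, each below the Lyz2-high Dlk1 cells in 8 of 8 stretches. The cells without Dlk1 had 20.7 CPM of Acoxl, 30.7 of C6 and 5.38 of Gdpd2. C6 was above the cells without Dlk1 in 7 of 8 stretches, against the pooled order. Gdpd2 fell short of 2-fold below the Lyz2-high Dlk1 cells after thinning to 5000 UMIs a cell (log2 ratio -0.83). Lyz1, the neighbour of Lyz2 that shares much of its sequence so that reads may be split between the pair, was at 69.0 against 178 CPM, and lower in 5 of 8 stretches. Among cells with Xist and no Y-linked UMI its log2 ratio was -0.58, short of 2-fold. Chil3 and Apoe, which macrophages also make, were at 1.55 against 11.6 CPM and 6.80 against 25.2. Chil3 was lower in the pooled ratio and above in 4 of 8 stretches, on 16 UMIs, and its log2 ratio went from -2.90 to -0.04 when cells with a non-epithelial UMI were left out. Apoe was not 2-fold lower within stretches (log2 ratio -0.91) and was above in 3 of 8.

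Lists of transcription factors and signalling genes held no call against the Lyz2-high Dlk1 cells, where 1.18% of all genes were higher and 0.118% lower, so that few calls would be found in lists of this size. Sox9, a factor of the distal lung bud, was at 26.4 CPM against 14.8 in the Lyz2-high Dlk1 cells and above them in 8 of 8 stretches, and at 18.6 in the cells without Dlk1, above in 5. Nkx2-1, the lung lineage factor, was at 355 against 297 CPM and above in 8 of 8, and below the cells without Dlk1 (393 CPM) in 7 of 8. The median log2 ratio of all genes to the Lyz2-high Dlk1 cells was itself 0.13 within stretches. How many of all genes were above in 8 of 8 was not counted, so nothing is read from these counts. Of 13 tested lineage and progenitor factors 0 differed 2-fold from the Lyz2-high Dlk1 cells, 2 were higher and 1 lower than in all Lyz2-high cells when pooled (1.64% and 0.326% of all genes) and 0 within stretches. In the same list 1 was higher, Bex4, and 1 lower, Id3, than in the cells without Dlk1 (0.641% and 0.372% of all genes). Id3 was at 25.9 against 58.8 CPM there and was not 2-fold lower within stretches. None of 14 tested Notch ligands, receptors and targets did so either, with a median log2 ratio of 0.23, and the target Hes1 was at 149, 125 and 112 CPM over the 3 sets. The 15 tested acute phase and STAT3 genes (median 0.17), the 5 C/EBP factors (-0.02), the 8 genes of gluconeogenesis and fructose use (-0.08) and the 14 of RAS-MAPK output (0.15) also had 0 calls against the Lyz2-high Dlk1 cells.

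Against the 3126 Lyz2-reduced cells without Dlk1, 7805 genes were compared, and 50 were at least 2-fold higher (0.641%) and 29 at least 2-fold lower (0.372%). Most of these calls did not hold within stretches, where 11 were higher and 15 lower, sharing 7 and 10 genes with the pooled calls. Ddx3y, Uty and Eif2s3y of the Y chromosome were among the 12 lowest genes when pooled, at 10.98 against 37.7 CPM for Ddx3y, and their within-stretch log2 ratios lay between -0.45 and -0.18. Mgp, matrix Gla protein, and Spp1, osteopontin, were at 3.11 against 40.5 CPM and 0.292 against 10.1 CPM, on 32 and 3 UMIs in the Lyz2-reduced Dlk1 cells. Both were still past 2-fold lower within stretches (log2 ratios -3.18 and -2.34), although the Lyz2-reduced Dlk1 cells were above in 4 and 2 of the 8.

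Some genes were higher in every stretch, in some stretches by little. Bex4 (chrX:136138996-136140443), a small brain-expressed X-linked protein, was at 55.9 against 15.8 CPM (3.53-fold, 3.18 to 3.91), and St6galnac3, a sialyltransferase, at 23.5 against 6.75 (3.48-fold, 2.96 to 4.09, and 2.05-fold within stretches). Trpv6 (chr6:41620624-41636405), an epithelial calcium channel, was at 11.8 against 3.64 CPM (3.23-fold, 2.57 to 4.05). Itih4 (chr14:30886476-30902353), an acute phase protein, was under 2-fold when pooled (195 against 102 CPM) and 2.63-fold within stretches, and was named after its values were seen. All 4 were higher in 8 of 8 stretches, though the smallest log2 ratio of a stretch was 0.024 for Bex4, 0.098 for St6galnac3, 0.11 for Itih4 and 0.36 for Trpv6, and none was apart 2-fold from the Lyz2-high Dlk1 cells, where Bex4 was at 63.3 CPM, Itih4 at 168 and Trpv6 at 9.80. Bex4 varied widely over the 8 stretches, from 0.614 to 157 CPM.

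Lower in all 8 stretches were Ccnd2 (chr6:127125162-127152193), cyclin D2, at 4.57 against 17.9 CPM (ratio 0.255, 0.186 to 0.341), the growth factor Fgf8 at 4.66 against 12.9, Psrc1, of the mitotic spindle, at 7.58 against 24.8, and Apoe at 6.80 against 31.9. Apoe had a log2 ratio of -2.23 when pooled and -1.52 within stretches, and at -0.46 was short of 2-fold among cells with Xist and no Y-linked UMI. Cdkn1c, the imprinted cell cycle inhibitor p57, was at 39.7 against 98.6 CPM and so 2.48-fold lower (2.25 to 2.75), yet in 8 of 8 stretches above the Lyz2-high Dlk1 cells, which had 22.7. Cdkn2a, the tumour suppressor locus of p16 and p19, was at 14.1 against 38.4 CPM and below in 8 of 8, by a log2 ratio of -1.45 when pooled and -0.72 within stretches. Fgf8 was named after its values were seen. In some stretches these genes were lower by little: the smallest change was a log2 ratio of -0.0061 for Psrc1, -0.063 for Cdkn2a and -0.11 for Apoe.

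**Figure D5:**
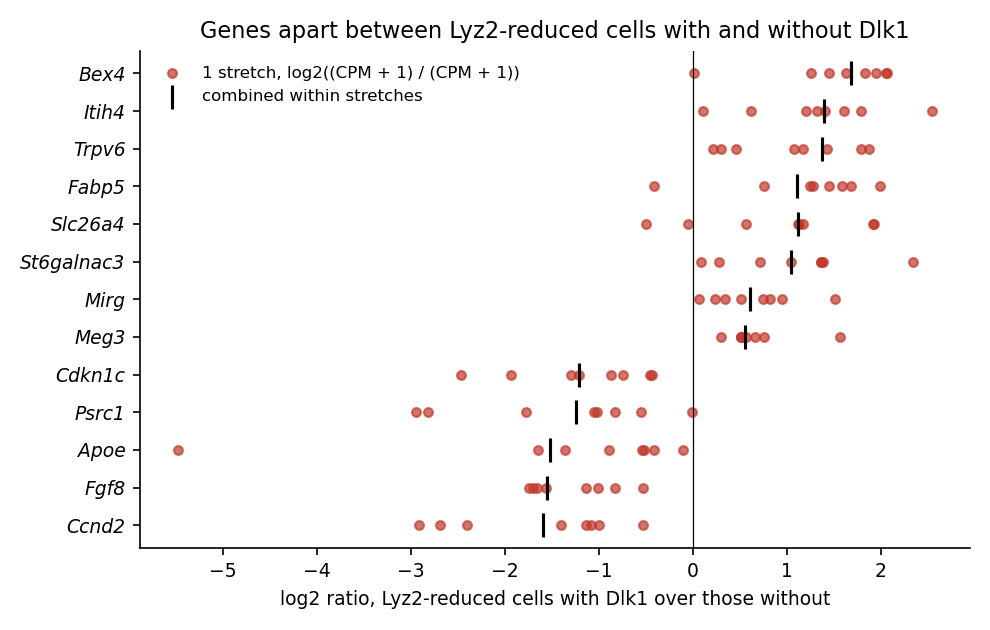
log2 ratio of (CPM + 1) in Lyz2-reduced Dlk1 cells over Lyz2-reduced cells without Dlk1 (x axis) for 13 genes (y axis); red points are the 8 stretches and black ticks the combined within-stretch ratio. Bex4, Itih4, Trpv6, St6galnac3, Mirg and Meg3 lie above 0 in all 8, Fabp5 in 7 and Slc26a4 in 6, and the 5 genes at the bottom lie below 0.

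The genes with the largest ratios included some carried by a few cells. Gkn2, a gastrokine, was at 50.1 against 3.44 CPM in the Lyz2-high Dlk1 cells, but 1 cell held 76.2% of its 516 UMIs, and without it the level was 11.99 CPM. Without the 5 highest cells Gkn2 was at 3.29 CPM, within the counting interval of the reference (2.69 to 4.33). Ccl20, a chemokine, had 123 UMIs in 4 cells, 66.7% of them in 1. Gzme, granzyme E, was in 44 cells at 38.1 against 7.17 CPM, with 0 in the stretches 14 to 16. By contrast Rgs4, a regulator of G protein signalling, at 176 against 71.5 CPM in the cells without Dlk1, and Slc26a4, an anion exchanger, at 62.7 against 22.8, were in 221 and 167 cells. Within stretches their log2 ratios were 0.51 and 1.11. Edn1, endothelin 1, was in 51 cells at 12.4 against 4.13 CPM and above in 7 of 8 stretches.

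Levels differed between stretches. Meg3 was at 5167 to 6046 CPM in the Lyz2-reduced Dlk1 cells of the stretches 4 to 8 and at 2499 to 3029 in the stretches 14 to 16, and Fbp1 at 84.7 to 169 and 42.1 to 49.5. Hc went the other way, at 186 to 333 and 449 to 480 CPM. How many of all genes part these stretches as fully was not counted, so nothing particular to these genes is read from it. Among bins of 2, 3 to 5, 6 to 10 and more than 10 Dlk1 UMIs, Meg3 was at 5561, 3674, 4477 and 4785 CPM, with no order, and Lrg1 at 737, 387, 399 and 823. Over the 409 cells thinned to 5000 UMIs, Spearman's rho of Dlk1 was 0.16 with Meg3, 0.26 with Lrg1, 0.12 with Lyz2 and -0.02 with Sftpc, a description of cells that share stretches and sparse counts. By Lyz2 in steps of 25 per 10000 UMIs from 0 to 100, Dlk1 was at 2378, 1759, 2389 and 2300 CPM, a description within the limits of both genes that the rule set.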

How the data were processed

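Sorted tdTomato-positive lung tumour cells of 6 mice were profiled with the 10x Chromium 3′ kit. The authors aligned reads to mm10 and made the deposited UMI counts per gene with Cell Ranger 3.0.2, and the pooled matrix holds 16017 cells, 31055 features and 266713311 UMIs with no cell barcodes among the files used here; shared barcodes were not analysed. The 500-gene minimum is the one in the study methods, and 13936 of the deposited cells passed it. Restored and NonRestored mice were not compared because no file used here maps cells to mice. The cells and gene lists were chosen with earlier results of these data known. Counts were summed per set of cells and scaled to CPM of 1000000 UMIs in Python 3.11.15 with numpy 2.4.6, scipy 1.17.1 and pandas 2.3.3. A call is a ratio of at least 2 among genes of at least 10 CPM in either set. Intervals at 95% are exact Poisson, conditional binomial for ratios and Clopper-Pearson for shares. A count test such as a quasi-likelihood fit needs replicates, so none was run. Named genes are the genes of the rule and its markers, the 12 with the largest ratio each way (1 CPM added) against the Lyz2-high Dlk1 cells and against the Lyz2-reduced cells without Dlk1, the Dlk1-Dio3 list, Stk11 and GFP, and in each other list the 4 farthest from its median and those called; other genes were chosen after their values were seen. Sums over 1000-column stretches with at least 20 cells of each set, cells with Xist and without Y-linked UMIs, and sets without cycling cells were added after the data were seen. Coordinates came from GENCODE M21, which matched 31011 feature IDs. Scrublet in scanpy 1.11.5 called 0 of 13936 cells as doublets and so did not work; leaving out the 6% of gated cells with the highest scores stood in for it. Ratios, intervals and calls were tested on simulated data. The other settings are given under the closing section. Some items are not reported here.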

Additional observations from a re-analysis of the deposited data

How the results depend on the processing

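The matrix is 1 pooled sample with no replicates, so no sample could be left out. No paired analysis was possible because the columns carry no replicate numbers and no test was run. The calls below are of genes at least 2-fold higher and lower in the Lyz2-reduced Dlk1 cells against the Lyz2-high Dlk1 cells (90 and 9), all Lyz2-high cells (126 and 25) and the Lyz2-reduced cells without Dlk1 (50 and 29). Of 17 settings, the following moved a count by more than 1.5 times. A 5 CPM minimum gave 181 and 19, 238 and 38, and 85 and 55. With no minimum there were 2164 and 1773, 1853 and 3746, and 1326 and 3886. Thinning to 5000 UMIs gave 160 and 23 against the first set, 43 lower against the second and 61 lower against the third. With Lyz2 limited to under 50, the Lyz2-reduced Dlk1 cells were 208 in place of 419, with 153 higher and 16 lower against the first set. Cells with Xist and no Y-linked UMI gave 16 lower against the second set, and 27 higher and 11 lower against the third. Without cycling cells 24, 44 and 25 genes were higher. Within stretches 59, 59 and 11 were higher, and 9 and 15 lower against the second and the third. With Sftpc, Lyz2 and Dlk1 out of the total 14 were lower against the first set and 38 against the second, and centred on the median gene 40 were lower against the second.

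Of 96 ratios of named genes that were at least 2-fold, with or without the 10 CPM minimum, under 17 settings, 21 of 1625 values changed sign. Against all Lyz2-high cells, log2 ratios turned to 0.76 for Chil3 without cells holding a non-epithelial UMI, and to 2.28 for Scgb3a2, 0.83 for Mgp and 0.95 for Smim6 in cells with Xist and no Y-linked UMI. Within stretches Scgb3a2 was at 0.35 and Mgp at 0.16 against that set, and Scgb3a2 at 2.62 and Gm7334 at 0.25 against the cells without Dlk1. In the Xist cells Mgp was at 0.064, Spp1 at 0.71 and Gm7334 at 0.58 against the cells without Dlk1. Without cycling cells, Birc5 was at -0.086 and Ube2c at -1.35 against the Lyz2-high Dlk1 cells, Ube2c at -1.30 against all Lyz2-high cells, and Rrm2 at -0.13, Birc5 at -0.20, Ube2c at -1.52 and Cenpf at -0.12 against the cells without Dlk1. Lyz1 was at -0.076 and Chil3 at -0.39 against the cells without Dlk1 with Lyz2 under 50, and Chil3 at -0.021 within stretches. The cause of these changes was not tested. Meg3, Mirg and Lrg1 kept their direction against the Lyz2-high Dlk1 cells and the cells without Dlk1 in all 17. The UMIs of a set limit the precision: 10292768 in the Lyz2-reduced Dlk1 cells.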

Other observations

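Some cells with Dlk1 UMIs lay outside the Sftpc-high gate. Of 1355 cells with at least 2 Dlk1 UMIs among those with 500 genes and at most 20% mitochondrial UMIs, 117 (8.63%) had Sftpc under 500 per 10000 UMIs, 94 (6.94%) passed the Sftpc limit and had Hopx, an alveolar type I gene, at 2 or more, and 18 (1.33%) passed both of these limits and had keratins of 50 or more. As background, a Dlk1 UMI was present in 10.9% of 64 Ptprc-positive and 1.77% of 226 collagen-positive cells low in Sftpc, unthinned, so how many of the 117 cells express Dlk1 is not known. The Lyz2-reduced Dlk1 cells were 30.9% of these 1355 cells and the Lyz2-high ones 52.2%. Cells without a TdTomato UMI were 0 of 1355, which allows a share of up to 0.221% by a limit of 3 counts (0.272% by the exact interval).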
